A study of Mus musculus with 6 samples.

Results

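Tnfsf9, Cd70, Tnfsf4 and Tnfsf15 encode 4 ligands of the tumour necrosis factor (TNF) family through which antigen-presenting cells costimulate T cells. They were selected by gene symbol, with the response of these cells to anti-CD40 already known, and are 4 of the 12780 genes that could be compared. Each was measured by 1 probe set, a group of short array probes read out as 1 value. RNA came from migratory type 1 conventional dendritic cells (cDC1), which take up antigen in the skin, travel to the draining lymph node and present it there to CD8 T cells. The groups were 3 anti-CD40 stimulated samples and 3 unstimulated samples. All 6 came from skin-draining lymph nodes of wild-type C57BL/6 mice, were sorted as cells positive for XCR1 and CD40, high for MHC II, intermediate for CD11c and negative for B220, CD326 and Sirpa, and were run on 1 array each. The labels used here give neither the route, dose and duration of stimulation nor whether each biological replicate came from separate mice, so any p-value here reflects only how these 6 samples vary, and part of that variation may be technical.

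TNF family ligands are made as trimers on the cell surface and bind receptors of the TNF receptor family, which recruit TRAF adaptor proteins and activate NF-kB. On T cells the signals of these receptors add to those of the T cell receptor and CD28, and sustain division, survival and memory. CD40 is itself such a receptor, carried by dendritic cells and bound by CD40 ligand on helper T cells. An agonist antibody against CD40 stands in for that ligand.

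RNA for Tnfsf9 and Cd70 was higher on every stimulated array than on any unstimulated array, by 9.15-fold and 6.33-fold, while Tnfsf4 and Tnfsf15 overlapped between the groups. Because the 4 ligands were chosen with this contrast known, their differences are a description, and the test across all genes, which includes them, is given only as background. Values are deposited intensities or their log2. A log2 difference is the stimulated mean minus the unstimulated mean, and an error is the SD over 3 arrays.

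Tnfsf9 encodes 4-1BB ligand (CD137L), which costimulates CD8 T cells through 4-1BB. Its intensity was 584, 364 and 496 on anti-CD40 stimulated arrays 1, 2 and 3, against 59.2, 60.7 and 38.2 on unstimulated arrays 1, 2 and 3. The lowest stimulated array was thus above the highest unstimulated array, by 2.58 on the log2 scale. Its log2 intensity averaged 8.88 ± 0.35 in stimulated cells and 5.69 ± 0.38 in unstimulated cells (SD, n = 3 each). The difference of 3.19 ranked 1 among the 12780 genes in the upward direction.

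Cd70 encodes the ligand of CD27, a receptor on naive and memory T cells. Its intensity was 488, 505 and 644 on stimulated arrays 1, 2 and 3, against 86.1, 80.4 and 90.4 on unstimulated arrays 1, 2 and 3. The groups were separated by 2.43 on the log2 scale, and the arrays of each group lay closer together than for Tnfsf9. Its log2 intensity averaged 9.08 ± 0.22 in stimulated cells and 6.42 ± 0.09 in unstimulated cells (SD, n = 3 each). The difference of 2.66 ranked 3 among all genes. An array background adds to dim values, so these folds can understate the change in RNA. With 20 intensity units added to every value before taking logs, the log2 differences were 2.78 for Tnfsf9 and 2.41 for Cd70.

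Tnfsf4 encodes OX40 ligand, which acts through OX40 on activated T cells. Its intensity was 360, 182 and 116 on stimulated arrays 1, 2 and 3, against 212, 66.1 and 141 on unstimulated arrays 1, 2 and 3. The groups overlapped: stimulated array 3 lay below unstimulated arrays 1 and 3. Its log2 intensity averaged 7.62 ± 0.82 in stimulated cells and 6.97 ± 0.85 in unstimulated cells (SD, n = 3 each). The difference of 0.65 was smaller than the SD of either group. It was 0.18 without unstimulated array 2, 0.21 without stimulated array 1, 1.02 without unstimulated array 1 and 1.03 without stimulated array 3, so single arrays decided its size.

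Tnfsf15 encodes TL1A, the ligand of death receptor 3. Its intensity was 32.7, 35.0 and 38.8 on stimulated arrays 1, 2 and 3, against 30.6, 29.0 and 33.6 on unstimulated arrays 1, 2 and 3. The groups overlapped, since unstimulated array 3 lay above stimulated array 1. Its log2 intensity averaged 5.15 ± 0.13 in stimulated cells and 4.95 ± 0.11 in unstimulated cells (SD, n = 3 each). The difference was 0.19 on the log2 scale. All 6 values were low, from 29.0 to 38.8, beside 20, the intensity that the higher group mean of every deposited probe set reached. Whether they were above array background was not analysed here. Leaving out stimulated array 3 gave 0.13.

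**Figure D1:**
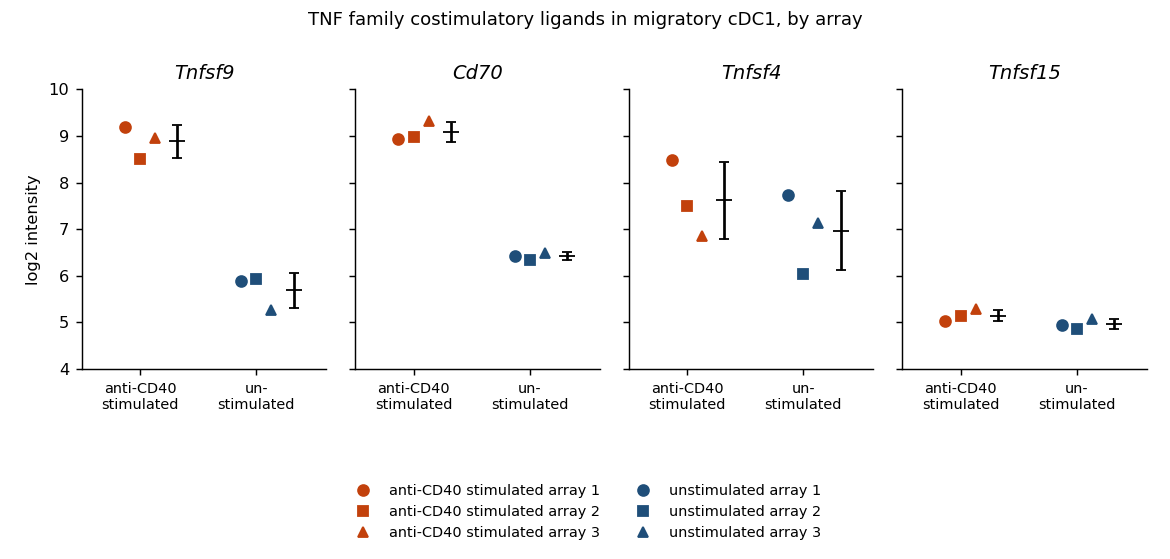
Log2 intensity (vertical axis) of the 4 ligand genes on each array, with anti-CD40 stimulated arrays in orange at the left and unstimulated arrays in blue at the right of each panel. Symbols mark arrays 1, 2 and 3, and the black bars are the mean ± SD of 3 arrays. Tnfsf9 and Cd70 averaged 8.88 and 9.08 in stimulated cells with no overlap with unstimulated cells, while both groups overlap for Tnfsf4 and Tnfsf15.

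The groups did not overlap, with higher stimulated values, for 2 of the 4 ligands, Tnfsf9 and Cd70. Over all genes this held for 3.68%, and for 3.46% with lower stimulated values. In the limma fit across all genes, which shares an estimate of the spread between genes, 2 of 12780 genes (0.0156%) passed a Benjamini-Hochberg adjusted p of 0.05 in the upward direction and 0 genes (0%) in the downward direction. At an unadjusted p under 0.05 there were 265 higher and 181 lower. The 2 genes that passed were Tnfsf9 and Cd70, and since both were picked from this contrast, these counts carry no further weight. Each of the 6 fits on 5 arrays left 0 genes past the threshold.

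In bulk RNA, fewer cells of a type and less RNA per cell cannot be told apart. CD70 and 4-1BB ligand are also made by activated lymphocytes, and the sorted cells were therefore set beside lymphocyte markers. Of 12 T cell markers, 7 were measured, 0 passed, and 6 differences were positive and 1 negative. Their summed intensity ran from 221 to 375 on stimulated arrays and from 204 to 317 on unstimulated arrays. The CD3 chain gene Cd3d was at log2 4.05, 5.20 and 5.97 on stimulated arrays 1, 2 and 3, against 4.39, 4.27 and 4.63 on unstimulated arrays 1, 2 and 3. Cd3d was thus highest on array 3 of each group, as was Cd70, and so were Cd3g, Cd5 and Cd8b1. Cd3e, Cd2 and Cd247 were highest on stimulated array 2, and among unstimulated arrays Cd2 and Cd247 were highest on array 3. Cd3e was the 1 T cell marker with no overlap, averaging 5.63 in stimulated and 5.44 in unstimulated cells. The brightest markers, Cd5 and Cd247, differed by 0.10 and -0.07. The largest differences of the list were 0.64 (Cd3d), 0.62 (Cd3g) and 0.43 (Cd8b1), with overlapping groups. Of 11 B cell markers, 4 were measured, with summed intensities of 114 to 177 in stimulated and 119 to 196 in unstimulated cells. Of these 0 passed, and 2 differences were positive and 2 negative. The brightest, Ighm and Pax5, differed by -0.17 and -0.27. The B cell genes Cd79a and Ms4a1 were not analysed here. Of 9 NK and innate lymphoid markers, 3 were measured, with summed intensities of 245 to 309 in stimulated and 602 to 761 in unstimulated cells. Il7r, the interleukin 7 receptor gene, made up most of that sum and differed by -1.50 without overlap (limma adjusted p = 0.203). Of the 3 genes 0 passed, although Il7r did pass with array weights, with the replicate number as a block and with the interquartile range as covariate. Prf1, the perforin gene, differed by 0.07. The defining genes Ncr1 and Gzmb were not analysed here. Without stimulated array 3 the Cd70 difference was 2.54, a value that does not measure lymphocyte RNA. The part of lymphocyte RNA in the ligand values was not tested.

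The label of the cells was checked against its own genes. Of 14 cDC1 markers, 13 were measured, 0 passed, 7 differences were positive and 6 negative, and at an unadjusted p under 0.05 0 were higher and 1 lower. The brightest, the transcription factor gene Irf8, averaged log2 11.64 in stimulated cells and 11.00 in unstimulated cells. Cd24a, the next brightest and the 1 under 0.05, averaged 10.78 in stimulated cells and 11.26 in unstimulated cells, with no overlap (limma adjusted p = 0.99998). Batf3, another transcription factor gene of cDC1, averaged 9.76 in stimulated and 9.35 in unstimulated cells, and Clec9a, a receptor gene for dead cells, 6.41 in stimulated and 6.67 in unstimulated cells. Naaa, Wdfy4, Itgae and Snx22 were dim, with means of 4.57 to 5.11 in stimulated and 4.60 to 5.18 in unstimulated cells, so the cDC1 label rests on part of its list. Of 12 migratory dendritic cell markers, 11 were measured and 0 passed, with 10 positive differences and 1 negative. Their median was 0.48, beside 0.005 for all genes, and 4 were higher and 0 lower at an unadjusted p under 0.05. For 4 of the 11 the groups did not overlap, with higher stimulated values, beside 3.68% of all genes. These were Cd40, Cd80, Cd86 and Socs2, of which Cd40, Cd80 and Cd86 are also counted in other lists here. Ccr7, the receptor that takes dendritic cells to lymph nodes, averaged 12.66 in stimulated cells and 12.51 in unstimulated cells. The actin-bundling gene Fscn1 averaged 12.08 in stimulated and 11.25 in unstimulated cells. For both Ccr7 and Fscn1 the groups overlapped. Xcr1, the chemokine receptor of the sort, was dim, at 4.67 in stimulated and 4.44 in unstimulated cells. Sirpa, whose product the sort required to be absent, was at 4.83 in stimulated and 4.67 in unstimulated cells. Epcam, which encodes the excluded CD326, was at 5.31 in stimulated and 4.74 in unstimulated cells, with all stimulated arrays above all unstimulated arrays, and did not pass (adjusted p = 0.99998 by limma). Of the lists for plasmacytoid, monocyte, type 2 dendritic, and endothelial and stromal cells, 5 of 6, 1 of 12, 2 of 8 and 6 of 13 genes were measured and 0 passed. Their brightest genes differed by -0.07 (Bst2) and 0.08 (Tcf4), -0.12 (Csf1r), 0.46 (Irf4), and -0.09 (Col1a1) and -0.15 (Col1a2), and the Langerhans cell gene Cd207 by -0.07. Among genes of the sort, Ptprc averaged 6.88 in stimulated and 7.07 in unstimulated cells.

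None of the other measured ligands of the family separated the groups. Of 14 listed, 6 were measured, 0 passed in either direction (0 also at an unadjusted p under 0.05), and their median log2 difference was -0.01, beside 0.005 for all genes. Tnf, the family's founding cytokine, differed by 0.14, with overlapping groups, although its SDs were smaller, at 0.13 in stimulated and 0.04 in unstimulated cells. Lta and Ltb, whose products form lymphotoxin, differed by 0.13 and -0.13. Tnfsf14 encodes LIGHT, a ligand of the herpesvirus entry mediator, and differed by 0.02. Tnfsf11, which encodes RANK ligand, differed by -0.03, and Eda, which encodes ectodysplasin, by -0.06. All 6 were dim: their highest log2 value on any array was 5.82, so small changes could be hidden by array background. The ligand genes Fasl, Cd40lg, Tnfsf8, Tnfsf10, Tnfsf12, Tnfsf13, Tnfsf13b and Tnfsf18 were not analysed here.

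RNA for receptors of the ligands was also read in the dendritic cells. Tnfrsf4, which encodes OX40, the receptor of the Tnfsf4 product, was at log2 10.61, 9.56 and 10.37 on stimulated arrays 1, 2 and 3, against 10.31, 8.95 and 9.45 on unstimulated arrays 1, 2 and 3. The groups overlapped, and the difference of 0.61 (95% interval -0.34 to 1.56, limma adjusted p = 0.99998) did not pass. Tnfrsf9, which encodes 4-1BB, the receptor of the Tnfsf9 product, was at 8.22, 6.85 and 8.13 on stimulated arrays, against 9.15, 7.60 and 7.85 on unstimulated arrays. Its difference of -0.47 (95% interval -1.66 to 0.72, limma adjusted p = 0.99998) did not pass either. Tnfrsf25, which encodes death receptor 3, was dim in both groups, at 4.51 in stimulated and 4.53 in unstimulated cells. Cd27, the receptor gene for CD70, was not analysed here.

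**Figure D2:**
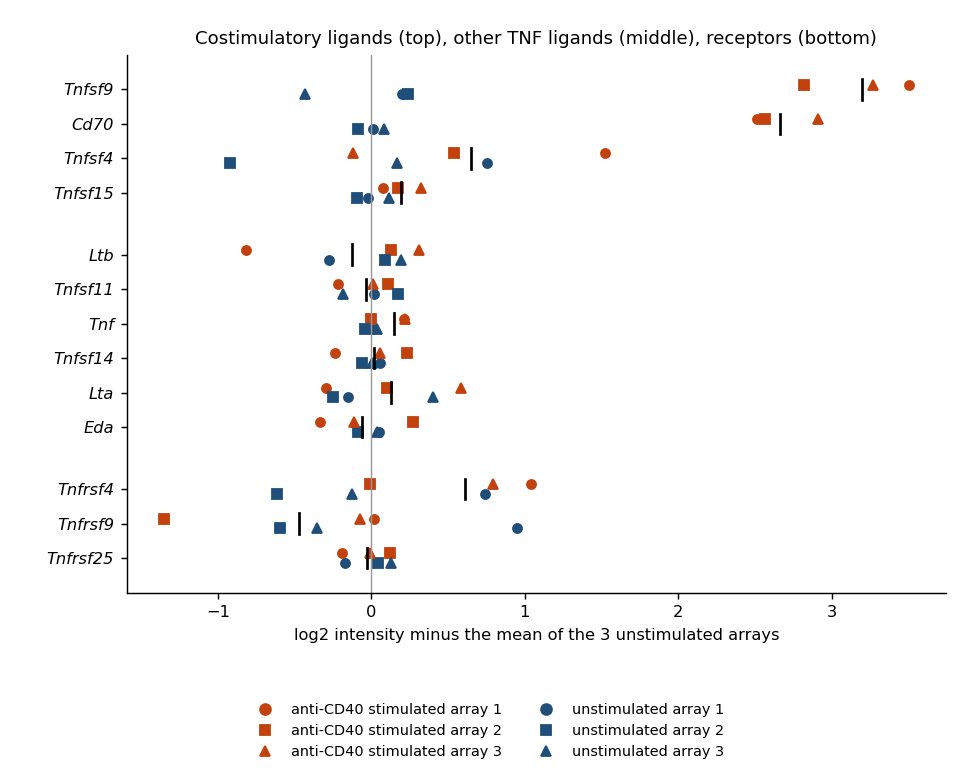
Log2 intensity of each array minus the mean of the 3 unstimulated arrays (horizontal axis) for the 4 costimulatory ligands, the 6 other measured TNF ligands and the 3 measured receptors. Orange symbols are stimulated arrays, blue symbols unstimulated arrays, and the black ticks are stimulated means. Tnfsf9 (3.19) and Cd70 (2.66) stand clear of 0, and the 2 groups of arrays overlap for all other genes shown.

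Over both receptor lists together, 21 of 28 genes were measured, 0 passed, and the median difference was 0.05, with 13 positive and 8 negative values. At an unadjusted p under 0.05, 2 were higher, Cd40 and the death receptor gene Fas (0.99), and 0 lower. Cd40, whose product was also part of the sort in both groups, averaged 9.61 ± 0.52 in stimulated cells and 8.60 ± 0.41 in unstimulated cells (SD, n = 3 each), a difference of 1.01 (95% interval 0.26 to 1.76, limma adjusted p = 0.99998). Tnfrsf1b, which encodes the second receptor of TNF, differed by -0.29.

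RNA for the proteins that carry signals from CD40 and its relatives was measured in 2 lists. Of 15 TRAF adaptors and partners, 13 were measured, 0 passed, and the median difference was -0.04. The brightest were Traf1, at 10.14 in stimulated and 10.22 in unstimulated cells, and Birc3, which encodes a ubiquitin ligase bound to TRAF proteins, at 10.10 and 10.12. Of 16 NF-kB subunits and inhibitors, 14 were measured, 0 passed, and the median difference was 0.33, with 10 positive and 4 negative values. Rel, which encodes c-Rel, differed by -0.26 and Nfkbib, an NF-kB inhibitor gene, by 0.59. At an unadjusted p under 0.05, 1 gene of each list was higher and 0 were lower. These were Traf4 (0.59, without overlap) and Nfkbia (0.84, with overlapping groups). The largest difference of the TRAF list was that of Map3k14, at -1.03, also with overlapping groups.

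The B7 family, which costimulates T cells through CD28 and related receptors, had 7 of 8 genes measured. Of these 0 passed over all genes, 2 were higher and 1 lower at an unadjusted p under 0.05, and the median log2 difference was 0.22. Cd86, a ligand of CD28, was at 11.41, 11.11 and 10.81 on stimulated arrays 1, 2 and 3, against 9.77, 9.30 and 9.65 on unstimulated arrays 1, 2 and 3. The groups did not overlap, and the difference was 1.54 ± 0.22 (SE, limma adjusted p = 0.208). Cd86 did pass with array weights and with the replicate number as a block. Cd80, the other ligand of CD28, averaged 11.57 in stimulated and 10.97 in unstimulated cells, also without overlap. The lower gene was Pdcd1lg2, which encodes PD-L2, a ligand of the inhibitory receptor PD-1. It averaged 5.50 in stimulated and 6.51 in unstimulated cells, without overlap (difference -1.01, limma adjusted p = 0.99998). The difference between the B7 genes and the TNF ligands was not tested.

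The 4 ligands differed in how their arrays spread within a group. The limma fit and the overlap of the groups both depend on this spread, so it is given as a description. Arrays numbered 1 had the widest distribution of log2 values, with interquartile ranges of 2.31 in stimulated and 2.19 in unstimulated cells, and arrays numbered 2 the narrowest, at 1.75 and 1.74. Arrays 3 lay between, at 2.03 and 1.92. Tnfsf4 was highest on array 1 of both groups, by 0.87 above the stimulated mean and by 0.76 above the unstimulated mean. Its lowest arrays were stimulated array 3 (-0.76 from the mean) and unstimulated array 2 (-0.92). With the interquartile range as a covariate the Tnfsf4 difference was 0.44 and the Tnfsf9 difference 3.13, the Cd70 difference was 2.66 and the Tnfsf15 difference 0.20.

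Tnfsf9 and Cd70 deviated by less, and not together. Tnfsf9 ranged over 0.68 among stimulated and 0.67 among unstimulated arrays on the log2 scale, and Cd70 over 0.40 and 0.17. On stimulated array 3, Cd70 lay 0.25 above its mean and Tnfsf9 0.07 above. On unstimulated array 3, Tnfsf9 lay furthest below its mean (-0.43) while Cd70 lay 0.08 above. Cd70 and Tnfsf15 had their arrays in the same order within both groups, an order shared by 254 of the 12780 genes (1.99%), among them Lta and the T cell genes Cd3d, Cd3g and Cd5. The order of Tnfsf9 was shared by 1.5% of genes and that of Tnfsf4 by 4.99%.

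**Figure D3:**
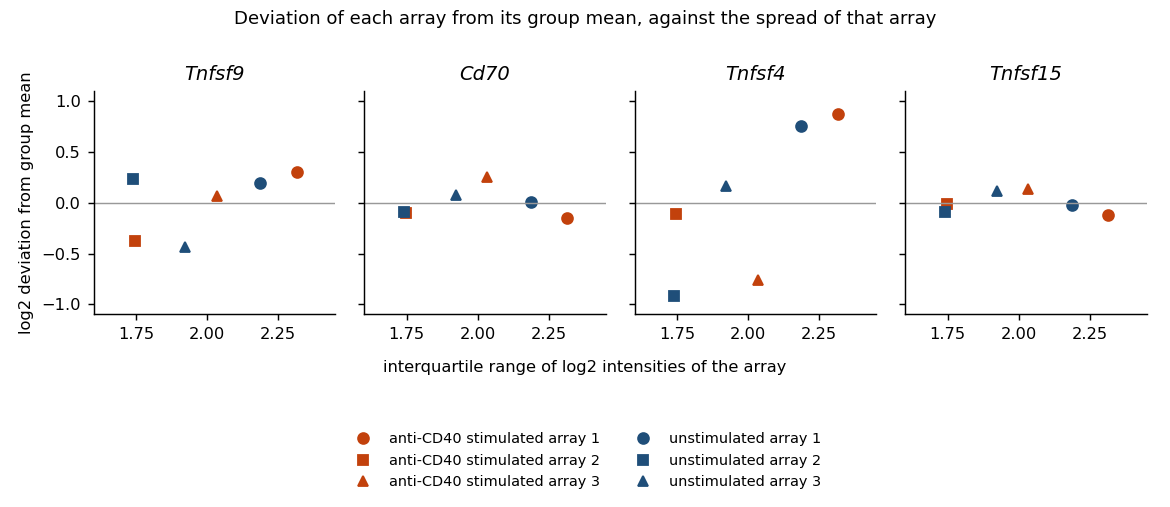
Deviation of each array from its group mean on the log2 scale (vertical axis) against the interquartile range of all log2 values of that array (horizontal axis), for each ligand gene. Orange symbols are stimulated and blue symbols unstimulated arrays 1, 2 and 3. Tnfsf4 has the widest spread, with both arrays numbered 1 at the top right, while Cd70 and Tnfsf15 stay within 0.25 of their group means.

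The genes most like each ligand were taken as those with the smallest root mean square difference between log2 profiles over the 6 arrays, each centred on its own mean. This measure follows the group difference and is a description. Nearest to Tnfsf9 were Cd70 (0.44), Ptgs2 (0.46), which encodes the prostaglandin-forming enzyme COX-2, and Mki67 (0.60), the gene of the Ki-67 antigen of dividing cells. Nearest to Cd70 were Cd81 (0.39), a tetraspanin gene, Tnfsf9 (0.44) and Hspa2 (0.46), a gene of the HSP70 chaperone family. Ptgs2 averaged 9.26 in stimulated cells and 6.62 in unstimulated cells. Cd81 averaged 9.66 in stimulated cells and 7.62 in unstimulated cells. Like Tnfsf9 and Cd70, both were higher on all stimulated arrays.

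Tnfsf4 had closer partners, namely the insulin receptor gene Insr (0.14), Atl3 (0.14), which shapes the endoplasmic reticulum, and the kinetochore gene Zwint (0.15). Insr was at 8.50, 7.96 and 7.21 on stimulated arrays 1, 2 and 3, against 8.02, 6.29 and 7.49 on unstimulated arrays 1, 2 and 3. It shared with Tnfsf4 a high array 1 in each group and a low unstimulated array 2. Nearest to Tnfsf15 were Ccdc130 (0.02), Atoh7 (0.03) and Rab7 (0.03), a set of genes that, like Tnfsf15, varied little over the 6 arrays.

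In the genome, Tnfsf9 and Cd70 lie next to each other on chromosome 17, with Tnfsf14 as the next protein-coding gene beyond Cd70 (gene order in RefSeq, GRCm38.p6). Tnfsf4 lies on chromosome 1 and Tnfsf15 on chromosome 4. Of the 18 measured genes beside the 4 ligands, up to 3 on each side, 0 passed, and for 0 of them did the groups not overlap. Their median log2 difference was 0.03 and their range -0.25 to 0.64.

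Beside Tnfsf9, the tubulin gene Tubb4a differed by -0.22, Dennd1c by -0.200 and the cell polarity gene Crb3 by 0.48. Beyond Cd70, Tnfsf14 averaged 4.91 ± 0.24 in stimulated cells and 4.89 ± 0.06 in unstimulated cells (SD, n = 3 each), so the third TNF ligand of this stretch differed by less than its spread. Trip10 and Gpr108, further along, differed by 0.09 and 0.16. Around Tnfsf4, Klhl20, Cenpl and Zbtb37 on one side differed by 0.32, 0.11 and -0.20, and Suco, Pigc and Eef1aknmt on the other by -0.05, 0.13 and -0.17. Around Tnfsf15, Tmem268, the proton pump gene Atp6v1g1 and Akna differed by -0.25, 0.15 and 0.64, and Astn2, the ubiquitin ligase gene Trim32 and Brinp1 by -0.20, -0.08 and 0.04. Akna had SDs of 0.93 in stimulated and 1.05 in unstimulated cells, above its difference.

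**Figure D4:**
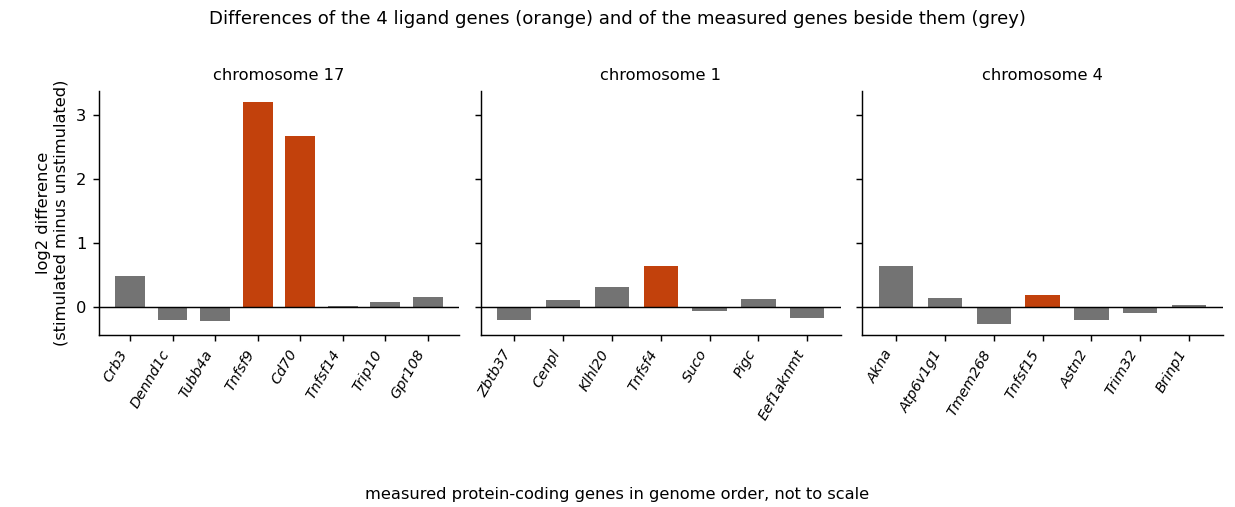
Log2 difference, stimulated minus unstimulated (vertical axis), of the 4 ligand genes in orange and of the nearest measured protein-coding genes in grey, in genome order and not to scale. On chromosome 17 the bars of Tnfsf9 and Cd70 reach 3.19 and 2.66, while the grey bars on all 3 chromosomes lie between -0.25 and 0.64.

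A promoter sequence was matched for 1 of the 4 ligands in the RefSeq promoter table (GRCm38.p6), that of Tnfsf15. Tnfsf9, Cd70 and Tnfsf4 had no match. It is shown as the start region of the ligand gene whose groups overlapped at a low level, and covers the 250 bases before the start site, 5′ to 3′ on the minus strand, at chr4:63745060-63745309.
Tnfsf15: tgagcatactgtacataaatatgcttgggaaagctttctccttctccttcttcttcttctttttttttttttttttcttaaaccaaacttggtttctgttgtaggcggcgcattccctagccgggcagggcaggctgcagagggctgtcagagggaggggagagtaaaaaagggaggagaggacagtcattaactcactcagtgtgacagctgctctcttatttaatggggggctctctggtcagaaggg
In these bases and the 50 that follow them, 5 motifs were searched on both strands, and 0 were found, so no base is in capitals. Over all 32851 promoters of the table, the kappa-B consensus to which NF-kB binds was held by 4.51%, TGANTCA of AP-1 by 7.81%, TATAAA by 13.6%, the core of the interferon-stimulated response element by 3.44% and GGAAGT of ETS factors by 23.8%.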

How the data were processed

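The deposited values are linear intensities of 17551 probe sets on 6 arrays, up to 13701, from very small amounts of amplified RNA per the labels. The submitters' processing notes name Affymetrix Expression Console and RMA, which corrects background, normalises by quantiles and summarises probe sets. No version or setting is named there. Each value was turned into log2. Genes were named through the platform annotation (13963 probe sets with 1 symbol, 970 with several, 2618 with none), and the brightest probe set of a gene was used. The 2 groups entered a linear model in limma (version 3.58.1, R 4.3.3) without covariates, two-sided, with Benjamini-Hochberg adjustment over 12780 genes at 0.05, and the procedure was tested on simulated data. The 4 ligands, the gene lists and the tests were chosen with earlier results of these data known. Named genes were the 4 ligands, other measured TNF ligands and their receptors, the 2 brightest of each further list, genes of the sort, the 3 nearest profiles and up to 3 measured neighbours a side. Outside this rule fall Cd3d, Cd3e, Cd2, Cd8b1, Fas, Batf3, Clec9a, Naaa, Wdfy4, Itgae, Snx22 and Socs2. So do Traf4, Map3k14, Nfkbia, Pdcd1lg2, Adam17 and the genes sharing an array order. All genes outside the rule were picked with their values in view. The number of arrays limits precision. Alternatives were other variance models, normalisations, filters, a pseudocount, weights, covariates and arrays left out. Protein sequences were not analysed here. Figures were drawn with matplotlib 3.10.9.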

Additional observations from a re-analysis of the deposited data

How the results depend on the processing

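Tnfsf9, Cd70, Tnfsf4 and Tnfsf15 had positive differences under all alternatives run. Several of these cannot change a ligand's difference, namely the other variance model, the replicate block, the filter on dim genes and the handling of probe sets. The groups of Tnfsf9 and Cd70 did not overlap, so leaving out arrays could not reverse them either. Leaving out 1 array at a time gave log2 differences of 2.98 to 3.38 for Tnfsf9, 2.54 to 2.74 for Cd70, 0.18 to 1.03 for Tnfsf4 and 0.13 to 0.25 for Tnfsf15. A pseudocount of 20 gave 2.78 for Tnfsf9 and 2.41 for Cd70, as adding a constant must lower them. Array weights gave 3.57 for Tnfsf9 and 0.12 for Tnfsf4, and the cause was not tested. Tnfsf15 has no value in the fit that drops the dimmest genes, since it is among them. Over all genes, those higher and lower numbered 2 and 0 in the reported fit, 5 and 1 with a second quantile normalisation, 3 and 1 with median centring, 1 and 0 with the pseudocount, 28 and 18 with array weights, 11 and 4 with the interquartile range as covariate, and 0 and 0 without any 1 array or, as chosen after seeing the data, without both arrays of a number. The labels share replicate numbers between groups without pairing the samples. Deviations of equal numbers correlated at 0.73, 0.59 and 0.06, and 5 of 6 arrays matched their own number best in the other group. With the replicate block, 30 genes were higher and 8 lower. The other TNF ligands and the receptors had 0 calls under every alternative. In the fits with arrays left out this was fixed in advance, since 0 of all genes passed there. Of 1257 values of 67 single genes under alternatives, 17 passed there only: 5 of Cd81, 3 each of Il7r and Hspa2, and 2 each of Cd86, Ptgs2 and Mki67. Signal over background was not analysed here and limits the dim genes.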

Other observations

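Genes whose products process or release TNF family ligands were described beside the ligands. Of 11 listed, 8 were measured, 0 passed over all genes by limma, 1 was higher and 0 lower at an unadjusted p under 0.05, and the median log2 difference was 0.10. Sppl2a, an intramembrane protease gene, averaged 7.91 ± 0.34 in stimulated cells and 7.60 ± 0.60 in unstimulated cells (SD, n = 3 each). Rhbdf2, which encodes a partner of the shedding protease ADAM17, averaged 6.45 in stimulated and 6.50 in unstimulated cells. The 1 gene under 0.05 was Adam17 itself, chosen after its value was seen, at 6.38, 6.72 and 5.87 on stimulated arrays 1, 2 and 3, against 6.06, 5.50 and 5.25 on unstimulated arrays 1, 2 and 3. Its groups overlapped and its limma adjusted p was 0.99998.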
